A study of Pinus pinaster with 36 samples.

Results

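The subject is a set of 41 root transcripts of maritime pine (Pinus pinaster) whose abundance separated seedlings grown at 720 ppm CO2 from those grown at 400 ppm, and which were also detected in the shoot. They were taken from 224081 transcript identifiers by a rule on CPM, a library's counts scaled to a common total of 1000000. The rule asked for a root mean of 5 to 500 CPM and a needle or stem mean of at least 0.5 CPM. All 6 root libraries at 720 ppm had to lie on the same side of all 6 at 400 ppm, with means at least 1.4-fold apart, and the transcript was not to be separated in this way in needles. Of 32459 identifiers with these levels, 197 (0.607%) did not overlap between the CO2 levels in roots, and 41 of those were past the fold limit. None of the 41 was without overlap in needles at any fold, where 3.86% of the 32459 were, so that last condition removed none. A limit of 300 members was not reached. The members were thus chosen by their root CO2 values, which are given as a description without a test.

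Seedlings were 2 months old and had been watered weekly for 1 month with 40 mL of ammonium chloride or potassium nitrate, each at 8 mM. They were held at 720 ppm CO2 with ammonium, 720 ppm with nitrate, 400 ppm with ammonium or 400 ppm with nitrate. Each of the 3 biological replicates of a group was a pool of 12 seedlings of the provenance Segura-Alcaraz, divided into roots, stem and needles, which gave 36 libraries in 12 groups. The 3 organs of a pool are therefore not independent samples, and the labels do not say whether the CO2 levels were held in different growth chambers, so CO2 and chamber cannot be told apart. Nitrogen form cannot be told apart from the chloride or potassium given with it. The file pairs no identifier with a gene name, and for that reason no function is attached to any transcript and the organ labels could not be checked against marker genes.

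Elevated CO2 generally raises carbon gain in the leaves of plants with the photosynthesis of conifers, and part of the extra carbon reaches the roots as sugar. Roots take up ammonium and nitrate through different transporters, and nitrate has to be reduced before it can be built into amino acids, whereas ammonium enters directly. Conifers of acid soils, maritime pine among them, are known to use ammonium readily. An RNA level measured in a whole organ cannot tell fewer cells of a type from less RNA per cell.

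Total counts were between 76221102 and 120587917 in root libraries, 76082457 and 111368507 in stem and 73414247 and 134836160 in needles. Among counts above 20 in a library, 53.0 to 64.4% were even numbers in roots, against up to 75.4% in stem and 73.1% in needles. The even share was over 65% in 3 stem and 4 needle libraries and in no root library. Those 7 are called low-complexity libraries here because they also had many identifiers at 0 counts. In roots the even share averaged 55.6 ± 4.31% at 720 ppm and 55.9 ± 2.16% at 400 ppm (SD, n = 6), a difference smaller than this spread (two-sided exact permutation p = 0.885, adjusted p = 0.885 over 4 library measures). The total count, the share of identifiers at 0 and the share of counts in the 50 most abundant identifiers did not pass the test either. The exact permutation p was 0.238, 0.506 and 0.234, with adjusted p of 0.476, 0.675 and 0.476. This test pooled the nitrogen forms, and a difference between the forms can hide a CO2 difference within each. Within each form the share in the 50 most abundant identifiers was lower in every 720 ppm root library. It was 5.59 to 6.13% at 720 ppm and 6.21 to 6.46% at 400 ppm with ammonium, and 5.08 to 5.23% and 5.25 to 5.55% with nitrate. The part of these measures in the CO2 differences was not tested further.

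In roots, 19 of the 41 transcripts were higher and 22 were lower at 720 ppm. The 41 are 0.126% of the 32459 of their level, and the direction classes are 0.0585 and 0.0678%. Nothing can be read from these shares, since the same values chose the members. With libraries scaled by TMM, a normalization that trims extreme ratios, 42 transcripts met the rule, 12 higher and 30 lower, and 27 of them were among the 41. Leaving out a library makes separation easier by construction. Without ammonium 720 ppm replicate 1 the rule gave 93 transcripts, 37 of them among the 41, and without nitrate 400 ppm replicates 2 or 3 or nitrate 720 ppm replicate 1 it gave 65, 63 and 62.

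**Figure D1:**
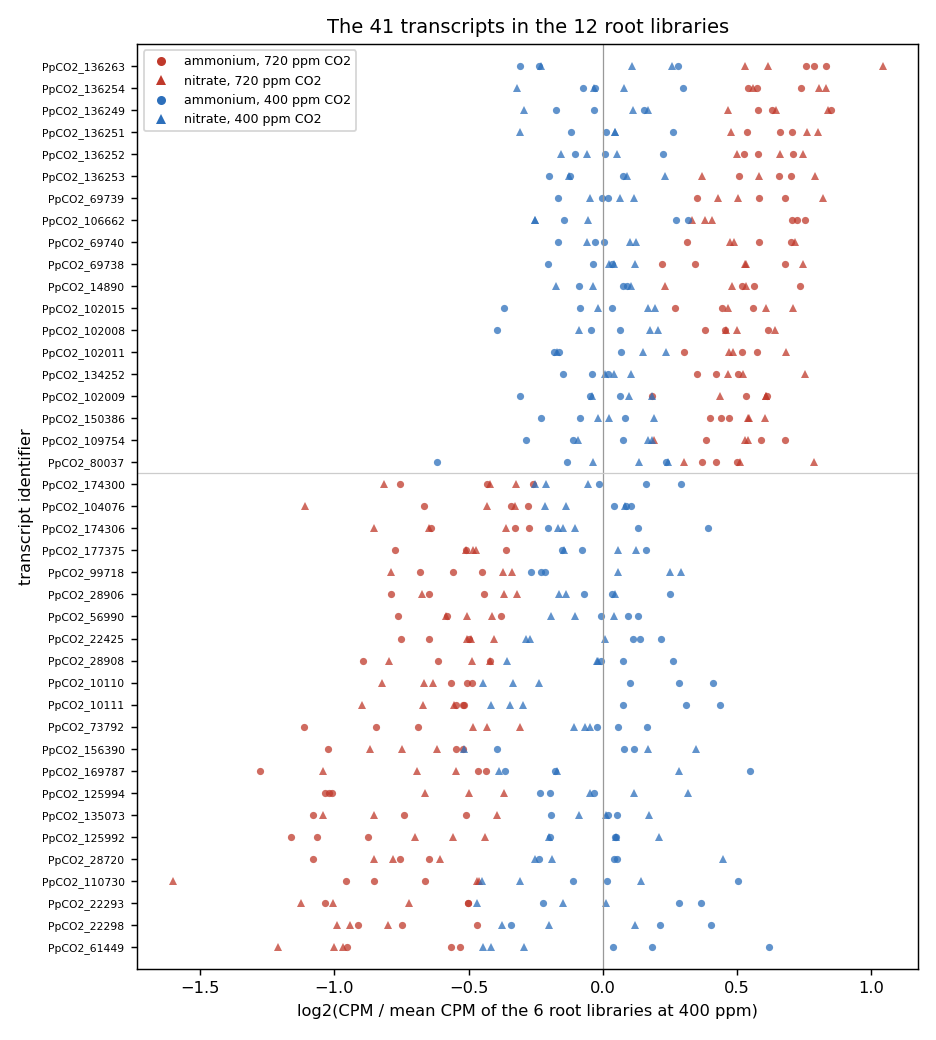
The 41 transcripts in the 12 root libraries, 1 row per transcript and 1 point per library, placed on the horizontal axis by log2 of its CPM over the mean CPM of the 6 libraries at 400 ppm. Red points are 720 ppm, blue points 400 ppm, circles ammonium and triangles nitrate. The 19 transcripts above the grey line were higher at 720 ppm and the 22 below it lower, and no red point crosses the blue points of its row, which the rule demanded.

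The differences were modest in size. The ratio of the 720 ppm mean to the 400 ppm mean ran from 1.41 to 1.71 in the higher transcripts, with a median of 1.43, and from 0.554 to 0.714 in the lower ones, with a median of 0.652. None reached 2-fold. The step between the facing extremes of the CO2 levels was small, from 1.00 to 1.28-fold with a median of 1.09-fold. At the fold limit, the nearest higher transcripts were PpCO2_80037 at 1.41-fold inside it and PpCO2_102016 at 1.37-fold outside it. The nearest lower ones were PpCO2_174300 at 1.4-fold and PpCO2_115259 at 1.39-fold. Root means of the members ran from 5.27 to 56.6 CPM.

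PpCO2_136263 had the largest rise in roots. Its levels at 720 ppm were 41.1, 43.2 and 42.0 CPM with ammonium and 37.2, 50.1 and 35.1 CPM with nitrate, against 20.6, 29.5 and 19.6 CPM with ammonium and 29.1, 20.7 and 26.2 CPM with nitrate at 400 ppm. Its mean was 41.5 ± 5.24 CPM at 720 ppm and 24.3 ± 4.51 CPM at 400 ppm (SD, n = 6). The libraries with ammonium at 720 ppm lay close together, and the highest of all was a nitrate library at 720 ppm. PpCO2_136254, from the same stretch of identifier numbers, had 23.1, 22.6 and 25.8 CPM with ammonium and 22.8, 27.1 and 27.6 CPM with nitrate at 720 ppm. At 400 ppm it had 15.2, 19.1 and 14.7 CPM with ammonium and 16.4, 15.1 and 12.4 CPM with nitrate. The step in both nitrogen forms was demanded by the rule for both transcripts. The nearest facing values were 22.6 and 19.1 CPM for PpCO2_136254.

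PpCO2_61449 had the largest fall and was also the member with the highest root mean. It had 50.4, 49.1 and 37.6 CPM with ammonium and 36.3, 31.5 and 37.2 CPM with nitrate at 720 ppm, against 111.9, 74.8 and 82.6 CPM with ammonium and 59.3, 54.6 and 53.3 CPM with nitrate at 400 ppm. The means were 40.3 ± 7.61 CPM at 720 ppm and 72.8 ± 22.5 CPM at 400 ppm (SD, n = 6), a ratio of 0.554. The spread at 400 ppm was mostly that between the nitrogen forms, with all 3 ammonium libraries above all 3 nitrate libraries. PpCO2_22298 had 9.22, 11.2 and 8.23 CPM with ammonium and 8.90, 7.79 and 8.05 CPM with nitrate at 720 ppm. At 400 ppm it had 12.2, 18.0 and 20.5 CPM with ammonium and 11.9, 13.5 and 16.8 CPM with nitrate, and the ratio of its means was 0.575.

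**Figure D2:**
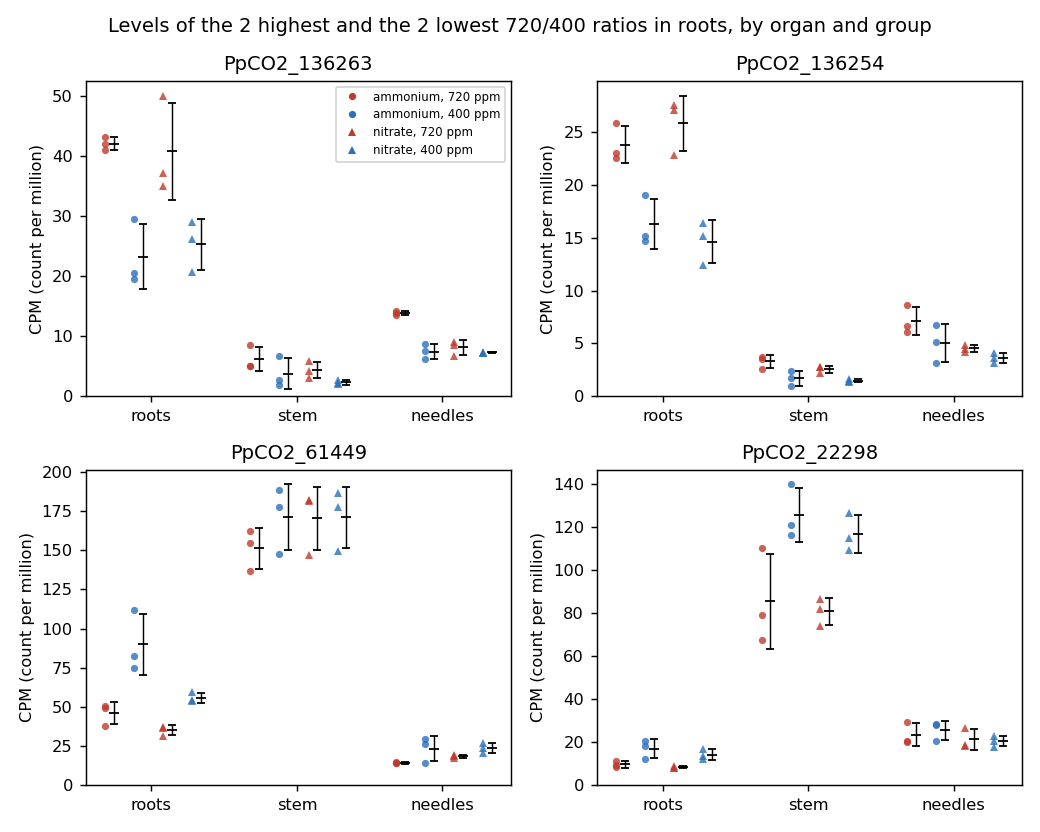
CPM of PpCO2_136263, PpCO2_136254, PpCO2_61449 and PpCO2_22298 in each library of roots, stem and needles, with the mean and SD of each group of 3 in black. Within each organ the groups run from ammonium 720 ppm and ammonium 400 ppm to nitrate 720 ppm and nitrate 400 ppm. PpCO2_136263 was at 35.1 to 50.1 CPM in roots at 720 ppm and at 19.6 to 29.5 CPM at 400 ppm, while PpCO2_61449 and PpCO2_22298 were more abundant in stem than in roots.

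Many members stood close together in identifier number. With members no more than 20 numbers apart joined, a step chosen after the data were seen, the 41 fell into 26 groups, 9 higher and 17 lower at 720 ppm. Of these, 8 groups held 2 to 6 members, 23 in all, and 18 held 1. Every group had a single direction. The group with the most members had 6, between numbers 136249 and 136263, with root ratios of 1.52 to 1.71. Another held 4, between 102008 and 102015, with root ratios of 1.42 to 1.43, and the next held 3, between 69738 and 69740, with 1.43 to 1.49. Whether such identifiers share a gene or share reads is not given in the sources used here, so 41 identifiers may stand for fewer genes.

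The members differed in where they were most abundant. Of the 19 that were higher at 720 ppm, 13 had their highest organ mean in roots, 5 in needles and 1 in stem. The 13 include the 6 from 136249 to 136263 and the 4 from 102008 to 102015, and the 5 include the 3 from 69738 to 69740. These counts are of identifiers, and members of a number group are not separate observations. Of the 22 that were lower, 15 had it in stem, 4 in roots and 3 in needles. In total 41.5% of the members were highest in roots, 39.0% in stem and 19.5% in needles, against 56.3, 32.5 and 11.2% of the 32459 transcripts of the same level. The latter shares were not split by CO2 direction. The members that were higher at 720 ppm had a median of 19.6 CPM in roots and 5.82 CPM in stem, and those that were lower had a median of 11.0 CPM in roots and 22.1 CPM in stem. The level limits of the rule bear on these organ means, and counts are not scaled by transcript length, so they compare organs and not transcripts.

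Within each nitrogen form, the direction in roots is fixed by the rule, but the size is not. The higher transcripts had a median log2 ratio of 720 over 400 ppm of 0.57 with ammonium (0.48 to 0.86) and 0.52 with nitrate (0.34 to 0.82). The lower transcripts had -0.76 with ammonium (-1.0 to -0.32) and -0.54 with nitrate (-0.79 to -0.29). The difference between the nitrogen forms in the CO2 response was tested with edgeR's quasi-likelihood test on all 156123 root transcripts with enough counts. It was called, at a Benjamini-Hochberg adjusted p under 0.05, for 0 of the 41 members, and for 0.462% of all transcripts tested and 0.0493% of those of the same level. Without adjustment, 5 members had p under 0.05, or 12.2%, in 4 number groups, against 6.74% of all transcripts tested and 5.91% of those of the same level. These 5 were all lower at 720 ppm and with the larger fall under ammonium. The demand that all 12 libraries split by CO2 limits how far the responses of members can differ.

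PpCO2_73792 had the smallest p among them. It had 15.3, 13.7 and 11.4 CPM with ammonium at 720 ppm, against 27.6, 24.3 and 25.6 CPM with ammonium at 400 ppm. With nitrate it had 19.9, 17.6 and 18.3 CPM at 720 ppm, against 23.8, 22.9 and 23.6 CPM at 400 ppm. The CO2 difference (ammonium minus nitrate) was -0.61 on the log2 scale (SE 0.134, edgeR adjusted p = 0.0869, range over alternatives 0.00405 to 0.27). DESeq2, which called 1.27% of all transcripts, called it with an adjusted p of 0.00405, and edgeR called it without ammonium 720 ppm replicate 1 (adjusted p = 0.0368). In the other direction the smallest p belonged to PpCO2_99718, with 5.03, 4.66 and 4.28 CPM at 720 ppm and 5.92, 5.70 and 5.85 CPM at 400 ppm with ammonium. With nitrate it had 5.43, 5.30 and 3.97 CPM at 720 ppm and 8.4, 7.13 and 8.17 CPM at 400 ppm. Its difference was 0.36 (SE 0.191, edgeR adjusted p = 0.811, range over alternatives 0.687 to 0.984).

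The stem was not used to choose the members by CO2, and there every one of the 41 had the direction it had in roots. All 19 that were higher in roots at 720 ppm had a higher stem mean at 720 ppm, with ratios of 1.2 to 1.92 and a median log2 ratio of 0.59. All 22 that were lower in roots had a lower stem mean, with ratios of 0.680 to 0.955 and a median log2 ratio of -0.21. Of all 32459 transcripts of the same level, 56.1% had the root direction in stem, and their median log2 stem ratios were 0.08 for those with a root ratio over 1 and 0.03 for those with a ratio under 1. Counted by groups of neighbouring numbers, 26 of 26 had the root direction. Stem and roots came from the same pools and the same CO2 setting, and members of a number group are not separate observations, so no p is given.

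Agreement in direction with the stem was not restricted to the 41. Of 733 transcripts of the same level that were past 1.4-fold in roots but overlapped between CO2 levels, 87.3% had the root direction in stem. Of 156 that did not overlap but were under 1.4-fold, 73.1% did. Within nitrogen forms, 39 of the 41 had the root direction in stem with ammonium (95.1%, against 57.9% of all of the same level) and 34 with nitrate (82.9%, against 50.3%). The 733 overlapping transcripts had it in 88.9% with ammonium and 61.8% with nitrate. The stem values with ammonium at 400 ppm include the low-complexity replicates 1 and 2. Without the 3 low-complexity stem libraries all 41 kept the root direction, but that group then rests on replicate 3 alone. In stem fits without any 1 library 39 to 41 kept it.

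**Figure D3:**
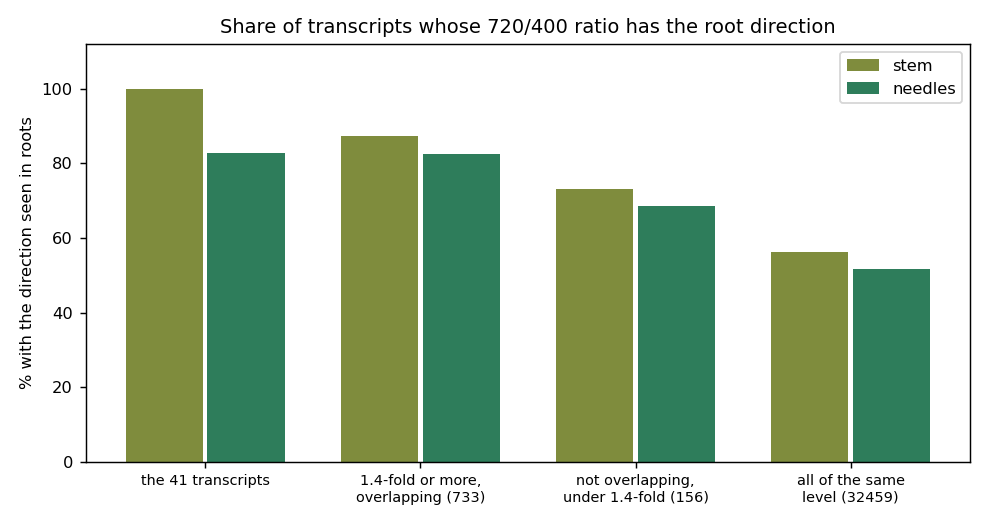
Percentage of transcripts whose ratio of mean CPM at 720 over 400 ppm has the same direction as in roots, for stem and needles, in 4 sets of transcripts of the same level. The 41 transcripts reach 100% in stem and 82.9% in needles, the 733 overlapping ones 87.3 and 82.4%, and all 32459 are at 56.1 and 51.8%. Root directions are pooled, and the sets differ in their mix of them.

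No single member passed the test in stem. edgeR's quasi-likelihood test of 720 against 400 ppm over both nitrogen forms called 0 of 137689 stem transcripts, 0% of those tested, and so 0 of the 41. At an unadjusted p under 0.05 there were 25 members, 15 higher and 10 lower at 720 ppm, all in the root direction, in 13 of the 26 number groups. That is 61.0% of the members, against 5.46% of all transcripts tested, 11.0% of those of the same level, 20.2% of the overlapping transcripts past 1.4-fold and 30.1% of the separated ones under 1.4-fold. DESeq2 called 10 members, 4 higher and 6 lower, where it called 0.545% of all transcripts. With no filter on low counts edgeR called 2, 1 in each direction, where it called 0.0266% of all. These shares of all are over transcripts of every level, and the share at the members' level may be higher, as it was for the unadjusted p. Number groups were not counted for these calls.

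The stem libraries of PpCO2_69740, the higher member with the smallest p, had 16.1, 20.6 and 15.4 CPM with ammonium and 16.5, 14.5 and 9.91 CPM with nitrate at 720 ppm. At 400 ppm they had 7.77, 9.72 and 9.76 CPM with ammonium and 9.97, 7.91 and 11.3 CPM with nitrate. Only the lowest library at 720 ppm, a nitrate one, overlapped with those at 400 ppm. The log2 difference was 0.69 (SE 0.138, edgeR adjusted p = 0.221, range over alternatives 0.00496 to 0.53). PpCO2_22293, the lower member with the smallest p, had 73.7, 84.1 and 81.5 CPM with ammonium and 91.0, 73 and 91.1 CPM with nitrate at 720 ppm. At 400 ppm it had 136.9, 102.2 and 145.4 CPM with ammonium and 112.4, 127.7 and 102.5 CPM with nitrate. The CO2 levels did not overlap, and the log2 difference was -0.57 (SE 0.104, edgeR adjusted p = 0.219, range over alternatives 4.26e-05 to 0.559). It was 1 of 2 members without overlap in stem, where 0.724% of the transcripts of the same level had none.

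The median of the 19 higher members, 13 of which lie in 3 number groups, was also taken in each stem library. This median log2 level relative to the stem mean was 0.12 to 0.32 in the 6 libraries at 720 ppm, against -0.72 to -0.13 in the 6 at 400 ppm, without overlap. Single members did not all follow it within a nitrogen form, since 1 of the 19 was lower at 720 ppm with ammonium and 2 were with nitrate. For the lower members it was -0.31 to 0.06 at 720 ppm, against 0.04 to 0.24 at 400 ppm, with overlap. With ammonium the lower members were at -0.31 to -0.19 in the 720 ppm stems and at 0.04 to 0.17 in the 400 ppm stems. With nitrate they were at 0.03 to 0.06 in the 720 ppm stems and at 0.06 to 0.24 in the 400 ppm stems. These nitrate ranges adjoin without overlap, at 0.0608 and 0.0623. Of the 22 lower members, 1 was higher at 720 ppm with ammonium and 5 were with nitrate, where their median log2 ratio was -0.07. Whether the step differed between the nitrogen forms in stem was not tested.

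**Figure D4:**
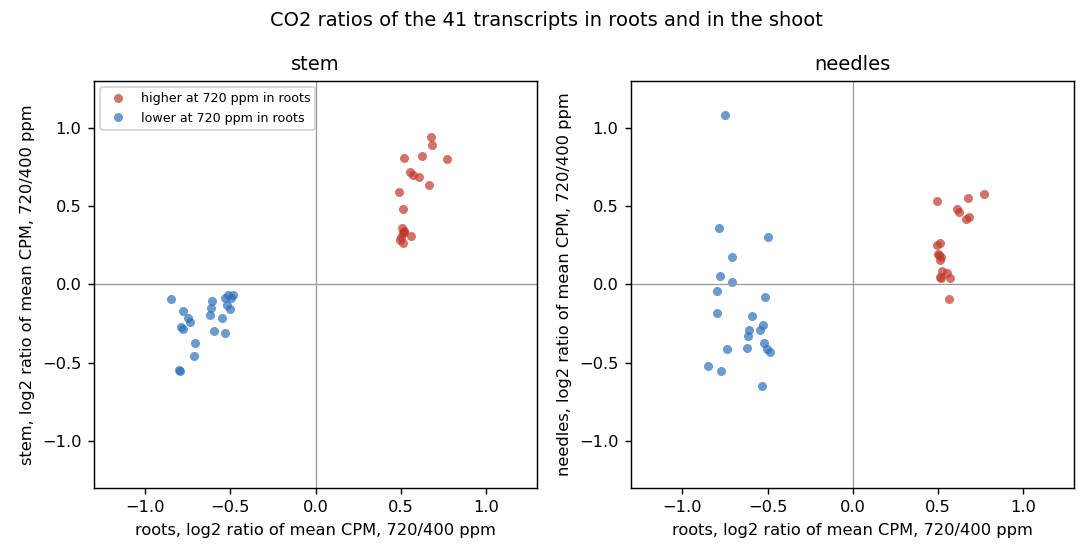
Log2 ratio of mean CPM at 720 over 400 ppm of the 41 transcripts in roots (horizontal) against stem and against needles (vertical). Red points were higher and blue points lower at 720 ppm in roots, as the rule demanded. In stem all 41 points lie in the quadrants of equal direction, and in needles 34 do.

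In needles 34 of the 41 had the root direction, 18 of the 19 higher and 16 of the 22 lower transcripts. The share of 82.9% stood beside 51.8% of all transcripts of the same level and 82.4% of the 733 overlapping ones. Median log2 ratios were 0.20 for the higher and -0.27 for the lower members, where the median of all transcripts of the same level was -0.10 by library total and 0.08 by TMM. The sign of small needle ratios therefore depends on the scaling. Fitted with TMM, 33 of 40 members with enough counts had the root direction. With ammonium 34 of the 41 had it (82.9%), against 49.6% of all of the same level and 76.7% of the 733 overlapping ones. With nitrate 27 had it (65.9%), against 53.1 and 77.9%, so the members were below the overlapping set there. By direction, 12 of the 19 higher and 15 of the 22 lower members had it with nitrate. Of all of the same level, 6605 of 16342 higher in roots and 10623 of 16117 lower in roots did. The rule used needle separation by CO2, although it removed none, and needle calls for CO2 are therefore not counted.

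The needle exceptions included PpCO2_135073, whose 12 needle libraries averaged 0.00707 CPM and carry no information on direction. The others were 5 lower members with needle ratios of 1.01 to 1.29 and 1 higher member with a ratio of 0.936. The 6 members of the number group from 136249 to 136263 had needle ratios of 1.34 to 1.5 and stem ratios of 1.55 to 1.92, both in the direction of the roots. The 3 from 69738 to 69740 were between 1.62 and 1.75 in stem and between 1.03 and 1.06 in needles, where their means of 43.8 to 67.2 CPM were above those in stem.

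Nitrogen form was a comparison the rule did not use, though separation by CO2 in the same root libraries limits how large a nitrogen difference a member can have. In roots, ammonium against nitrate over both CO2 levels was called for 8 of the 41 members, 4 higher and 4 lower with ammonium, or 19.5%. edgeR called 16.4% of all transcripts tested, 5.85% higher and 10.5% lower, and 25.0% of those of the same level, so the share among members was near the background. Without ammonium 720 ppm replicate 2 the count was 4, and without nitrate 400 ppm replicate 3 or nitrate 720 ppm replicates 1 or 2 it was 5. Of the 8, which lie in 6 number groups, 7 were lower at 720 ppm, in 5 groups, and 1 was higher. The median log2 fold change of ammonium over nitrate was -0.06 over the members and 0.01 over all transcripts tested.

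PpCO2_61449, with the largest CO2 fall, also had the highest log2 fold change among the members that rose with ammonium. Over both CO2 levels it was at 37.6 to 111.9 CPM with ammonium, median 62.6 CPM, and at 31.5 to 59.3 CPM with nitrate, median 45.3 CPM. The nitrogen groups overlapped because the CO2 levels lay apart within each, and the log2 difference was 0.48 (SE 0.0929, edgeR adjusted p = 0.003). PpCO2_10111 rose by 0.35 (SE 0.072, edgeR adjusted p = 0.00431), with a median of 14.8 CPM with ammonium and 12.0 CPM with nitrate. PpCO2_125994 and PpCO2_125992, near neighbours in number, fell by 0.45 (SE 0.0797, edgeR adjusted p = 0.00169) and by 0.31 (SE 0.0839, edgeR adjusted p = 0.0209) on the log2 scale. Over alternatives the adjusted p reached 0.00958 for PpCO2_61449, 0.0149 for PpCO2_10111 and 0.0062 for PpCO2_125994. PpCO2_125992 lost its call without ammonium 720 ppm replicate 2 (0.0508) or nitrate 720 ppm replicate 1 (0.0535).

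In stem 1 of the 41 was called for nitrogen form, where edgeR called 0.28% of all transcripts and 0.832% of those of the same level. It was PpCO2_125994, with 20.3, 18.8 and 22.1 CPM at 720 ppm and 29.3, 29.6 and 31.6 CPM at 400 ppm with ammonium. With nitrate it had 32.9, 37.0 and 38.7 CPM at 720 ppm and 37.6, 34.8 and 37.7 CPM at 400 ppm. All 6 ammonium libraries lay below all 6 nitrate libraries, and those at 720 ppm with ammonium were the lowest. The log2 difference was -0.55 (SE 0.0768, edgeR adjusted p = 0.00352, at most 0.0346 over alternatives). The count was 3 without ammonium 400 ppm replicate 3 and 2 without ammonium 720 ppm replicate 1. DESeq2 called 6 members beside 0.969% of all transcripts, a share over every level and not that of the members.

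In needles 3 of 40 members tested were called, where edgeR called 0.374% of all transcripts and 0.918% of those of the same level. PpCO2_109754 was at 18.1 to 30.8 CPM with ammonium, median 25.9 CPM, and at 12.1 to 21.7 CPM with nitrate, median 15.4 CPM. The groups overlapped, and the log2 difference was 0.68 (SE 0.134, edgeR adjusted p = 0.0405). PpCO2_28908 and PpCO2_28906, neighbours in number, were lower with ammonium. PpCO2_28908 had a median of 4.90 CPM with ammonium and 7.02 CPM with nitrate without overlap, and its change (log2) was -0.58 (SE 0.111, edgeR adjusted p = 0.0344). PpCO2_28906 had a median of 4.01 CPM with ammonium and 5.97 CPM with nitrate, with overlap, and its change (log2) was -0.54 (SE 0.109, edgeR adjusted p = 0.0483).

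The log2 differences kept their sign without any 1 needle library, at 0.60 to 0.78 for PpCO2_109754, -0.65 to -0.51 for PpCO2_28908 and -0.58 to -0.50 for PpCO2_28906, but most of those fits lost calls. The count was 1 without ammonium 400 ppm replicates 1 or 3, ammonium 720 ppm replicates 1 or 3 or nitrate 720 ppm replicate 1. It was 0 without ammonium 400 ppm replicate 2, ammonium 720 ppm replicate 2, nitrate 400 ppm replicates 2 or 3 or nitrate 720 ppm replicates 2 or 3. DESeq2 called 9 members, beside 1.3% of all transcripts, and edgeR 5 with no filter on low counts, beside 0.361%. Both shares are over every level and not that of the members. Over alternatives the adjusted p reached 0.137 for PpCO2_109754, 0.114 for PpCO2_28908 and 0.186 for PpCO2_28906.

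**Figure D5:**
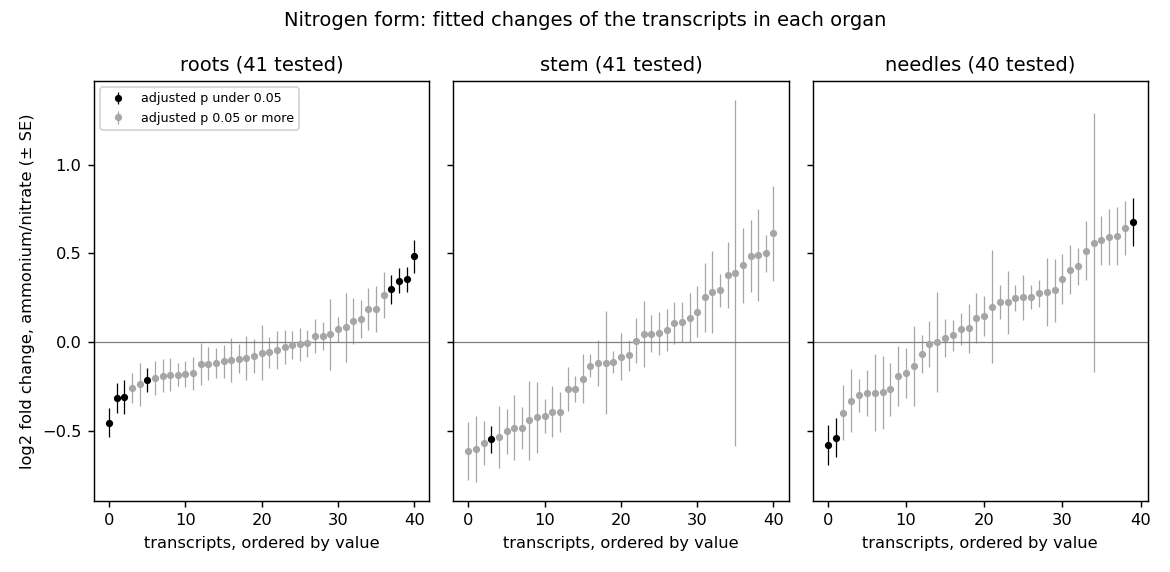
Fitted log2 fold change of ammonium over nitrate, over both CO2 levels, for the members tested in each organ, ordered by value, with SE bars. Black points passed an adjusted p of 0.05: 8 of 41 in roots, 1 of 41 in stem and 3 of 40 in needles. The horizontal order differs between the organs.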

How the data were processed

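The deposited file holds raw counts per transcript identifier for 36 libraries, whole numbers with differing totals, as deposited by the authors. Per the submitters' processing notes bcl2fastq was used, and the aligner, counter and transcript assembly are not given in the sources used here. Groups came from the sample titles. The labels' treatment text describes another, root-only ammonium experiment and was not used. All 36 columns matched a sample by name. Members were found on CPM by column total.

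Each organ's 12 libraries were fitted with 1 term for each group, leaving 8 residual degrees of freedom, in edgeR 4.0.16 under R 4.3.3, after filterByExpr (minimum count 10) and TMM, by the robust quasi-likelihood test. It is two-sided, and p-values were adjusted by Benjamini-Hochberg over every transcript tested. SEs come from the fold change and its F statistic. Library measures were compared by exact permutation of 6 against 6 libraries, with the nitrogen forms pooled. The scripts were tested on simulated data. Alternatives were DESeq2 1.42.0, its size factors, no low-count filter, a log2 fold change over 1, the replicate number as a block, each library left out, no low-complexity libraries, and other limits of the rule.

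Members, lists and tests were chosen with earlier results of these data known. Named transcripts were, per comparison, at most the 2 highest and 2 lowest: by ratio of root means for CO2, by log2 fold change among those called otherwise, and by p where none was called. PpCO2_135073, the neighbours of the fold limit and the number groups were named after their values were seen. Replicates are pools of seedlings that the labels call biological, and nothing else says how separate their cultures were. The p-values therefore weigh group differences against the spread between these pools, which may not be that between independent cultures.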

Additional observations from a re-analysis of the deposited data

Results flagged for a closer look

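Of 40 groups of 6 libraries examined for a library far from the others, 2 stood out, both for the share of even values among counts over 20 in roots, and chance flags about 1 in 20. Ammonium 720 ppm replicate 1 had 64.4%, while the other 5 root libraries at 720 ppm had 53.0 to 54.2%. Ammonium 400 ppm replicate 1 had 59.9%, while the others at 400 ppm had 54.4 to 56.4%. Without ammonium 720 ppm replicate 1, 93 transcripts met the rule, and its part in which transcripts are members was not tested further.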

How the results depend on the processing

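The number of transcripts that met the rule was 121 with a fold of at least 1.2, 0 with a fold of at least 2 and 27 with a root mean of at least 10 CPM, and it ran from 37 to 93 with 1 root library left out. For CO2 in stem, members called numbered 0 in edgeR, 2 without the low-count filter, 10 by DESeq2 and 0 without any 1 library. For the interaction in roots, 1 was called by DESeq2 and 0 to 1 without 1 library. For nitrogen form, no member was called in any organ with a log2 fold change also over 1 (0 in roots, 0 in stem and 0 in needles). In roots 4 to 7 were called without 1 library. In stem 2 were called without the low-count filter, 6 by DESeq2 and 1 to 3 without 1 library. The stem fit without low-complexity libraries leaves replicate 3 alone in the ammonium 400 ppm group, and its calls are not counted. In needles 5 were called without the filter, 9 by DESeq2 and 0 to 4 without 1 library. The root direction was kept by 39 to 41 members in stem and 31 to 35 in needles without 1 library. The difference in even share between 720 and 400 ppm roots was -0.33 percentage points over counts above 20 and 0.158 over counts above 100, a change of sign within the spread. The causes of these changes were not tested.

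Same-numbered libraries of an organ correlated above 0.1 in 15 of 18 pairs in roots (median r 0.20), 10 of 18 in stem (0.12) and 10 of 18 in needles (0.14). Libraries of different number did so in 5 of 36 pairs in roots (median r -0.15), 4 of 36 in stem and 0 of 36 in needles, so same-numbered libraries were more alike. The fits without the block were kept, because not every pair exceeded 0.1 and the labels name nothing shared by a number across groups. That limit cannot show that same-numbered libraries share nothing. The main adjusted p-values come from fits that leave this likeness out. With the replicate number as a block, 8 members were called for nitrogen form in roots, 1 in stem and 2 in needles, 0 for CO2 in stem and 0 for the interaction in roots. The direction counts under each fit and the version of the rule with needle separation at any fold, which left 41, were chosen after seeing the data.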
